A study of Caenorhabditis elegans with 2 samples.

Results

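VAB-15 peaks in divergent promoters are the peaks that lie between 2 protein-coding genes transcribed away from each other. A peak was taken as a member when its summit lay 1 to 1000 bp upstream of a transcription start site (TSS) on the plus strand and also 1 to 1000 bp upstream of a TSS of another gene on the minus strand. Of the 990 peaks in the authors' optimal set, 229 met this rule (23.1%, exact Clopper-Pearson 95% interval 20.5 to 25.9). Another 404 peaks lay upstream of genes on a single strand and are called one-sided promoter peaks, and 357 lay outside promoters. VAB-15 was immunoprecipitated through a GFP-FLAG tag joined to its C terminus and inserted by CRISPR at the vab-15 gene of Caenorhabditis elegans strain XIL99, using an antibody to GFP. Both biological replicates were whole L1 larvae of mixed sex that had been bleached and then starved, so chromatin from every cell type of the animal was pooled. They form the only group, and no untagged or input library was analysed here. Read depth is unknown because the deposited peak lists hold no read counts, and all intervals below cover counting error over regions only.

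VAB-15 is a homeodomain transcription factor of the Msx class, known in the worm for its part in the making of touch receptor neurons. Homeodomains bind short AT-rich sites built around the letters TAAT, and Msx proteins favour TAATTG. In the compact worm genome many neighbouring genes are placed head to head, so that 1 short intergenic stretch serves as promoter for both, and a bound factor cannot be assigned to either gene by position alone.

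The sequences around the strongest summits are shown first, because they belong to the members of highest signal. Each is the 101 bp centred on the summit, read on the plus strand of the ce11 (WBcel235) reference of RefSeq, 5′ to 3′, and lies in no annotated exon. Capitals mark any match, on either strand, to the homeodomain words TAATTG and TAATTA, to the words GAGCGC and ACGCAG and CTGCGTCT and the splice-site-like TTTCAG, or to the longer word ACCGTAC. The word TAATTA is its own reverse complement, and ACGCAG is contained in the reverse complement of CTGCGTCT. Shown are 5 of the 6 strongest members, each named by its minus-strand gene and then its plus-strand gene.
hel-1/C26D10.4, chrII:8329087-8329187: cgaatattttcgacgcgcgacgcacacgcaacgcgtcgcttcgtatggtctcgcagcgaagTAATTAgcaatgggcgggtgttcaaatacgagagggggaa
K01G5.10/tasp-1, chrIII:10759196-10759296: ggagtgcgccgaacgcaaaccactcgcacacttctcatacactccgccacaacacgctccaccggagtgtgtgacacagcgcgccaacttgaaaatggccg
C06B3.6/C06B3.7, chrV:13909563-13909663: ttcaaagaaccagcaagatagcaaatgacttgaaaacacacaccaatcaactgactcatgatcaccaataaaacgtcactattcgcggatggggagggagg
rpl-15/K11H12.8, chrIV:654874-654974: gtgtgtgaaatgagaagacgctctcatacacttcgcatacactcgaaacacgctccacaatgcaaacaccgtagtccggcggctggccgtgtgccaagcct
iff-2/F54C9.14, chrII:8561385-8561485: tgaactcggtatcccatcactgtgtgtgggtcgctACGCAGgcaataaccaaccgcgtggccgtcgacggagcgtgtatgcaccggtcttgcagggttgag
None of these 5 windows held TAATTG. The hel-1 window held TAATTA, and the iff-2 window held ACGCAG.

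A second set of members is shown because it holds GAGCGC, the searched motif that the largest number of members carried.
W03C9.5/mex-1, chrII:11967668-11967768: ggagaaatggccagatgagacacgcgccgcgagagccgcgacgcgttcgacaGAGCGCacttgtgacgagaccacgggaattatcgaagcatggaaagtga
ska-3/rps-12, chrIII:5679081-5679181: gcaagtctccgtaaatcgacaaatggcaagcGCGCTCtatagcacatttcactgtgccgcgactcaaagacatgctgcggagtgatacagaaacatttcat
mig-5/cct-1, chrII:8185154-8185254: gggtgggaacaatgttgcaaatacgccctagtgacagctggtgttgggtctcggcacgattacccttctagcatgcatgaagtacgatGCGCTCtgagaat
Y48B6A.1/rpl-43, chrII:14154496-14154596: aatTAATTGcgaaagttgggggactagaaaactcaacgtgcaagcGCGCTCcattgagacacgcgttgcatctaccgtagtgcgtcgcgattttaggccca
fib-1/mut-15, chrV:15002256-15002356: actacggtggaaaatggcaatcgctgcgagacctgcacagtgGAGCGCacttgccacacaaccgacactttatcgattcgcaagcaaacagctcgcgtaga
The window between Y48B6A.1 and rpl-43 held TAATTG as well, 1 of 2 members in which both motifs occurred.

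A last set holds ACCGTAC, a motif chosen after the sequences had been seen, which was more frequent in the windows of members than in those of the other classes of region compared.
T27E9.2/ant-1.1, chrIII:13463058-13463158: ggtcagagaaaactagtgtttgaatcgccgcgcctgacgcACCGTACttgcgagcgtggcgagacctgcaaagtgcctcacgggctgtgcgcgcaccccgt
cct-8/Y55F3AR.2, chrIV:1094294-1094394: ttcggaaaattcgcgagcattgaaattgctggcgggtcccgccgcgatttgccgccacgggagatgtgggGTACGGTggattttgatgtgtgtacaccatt
rps-23/dpm-3, chrIV:12391284-12391384: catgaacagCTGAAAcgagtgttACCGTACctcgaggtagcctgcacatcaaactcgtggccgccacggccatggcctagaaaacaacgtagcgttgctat
wapl-1/htz-1, chrIV:4445855-4445955: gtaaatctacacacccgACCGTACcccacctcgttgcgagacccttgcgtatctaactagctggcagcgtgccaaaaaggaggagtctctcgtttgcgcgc

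VAB-15 peaks were concentrated in divergent promoters. The 229 members made up 36.2% of the 633 promoter peaks (95% interval 32.4 to 40.1), whereas 8.22% of 3284 promoter regions among the weaker regions were divergent (270 regions, 7.30 to 9.21). The weaker regions are the 14938 lowest in signal in the pooled list that overlap no peak. The difference was 28.0 percentage points (Newcombe 95% interval 24.2 to 31.9). Counted over all regions, 23.1% of the peaks and 1.81% of the weaker regions lay in divergent promoters, a difference of 21.3 points (18.8 to 24.1). Bases that meet the rule make up 1.71% of the 6 chromosomes.

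Divergent promoters held more peaks per base than one-sided promoters at every distance from the TSS that was counted. Divergent promoters held 133 peaks per megabase (exact Poisson 95% interval 117 to 152), and one-sided promoters 19.5 (17.7 to 21.5). Within 100 bp of the nearer TSS the densities were 177 per megabase in divergent and 23.4 in one-sided promoters. At 101 to 200 bp they were 224 and 39.6. Divergent promoters also had the higher density in each of the other distance classes, down to 34.4 against 9.43 at 601 to 1000 bp, where 7 members lay. The weaker regions had 157 summits per megabase in divergent and 146 in one-sided promoters. By distance their order varied, from 110.5 against 142 at 201 to 300 bp to 221 against 152 at 601 to 1000 bp.

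**Figure D1:**
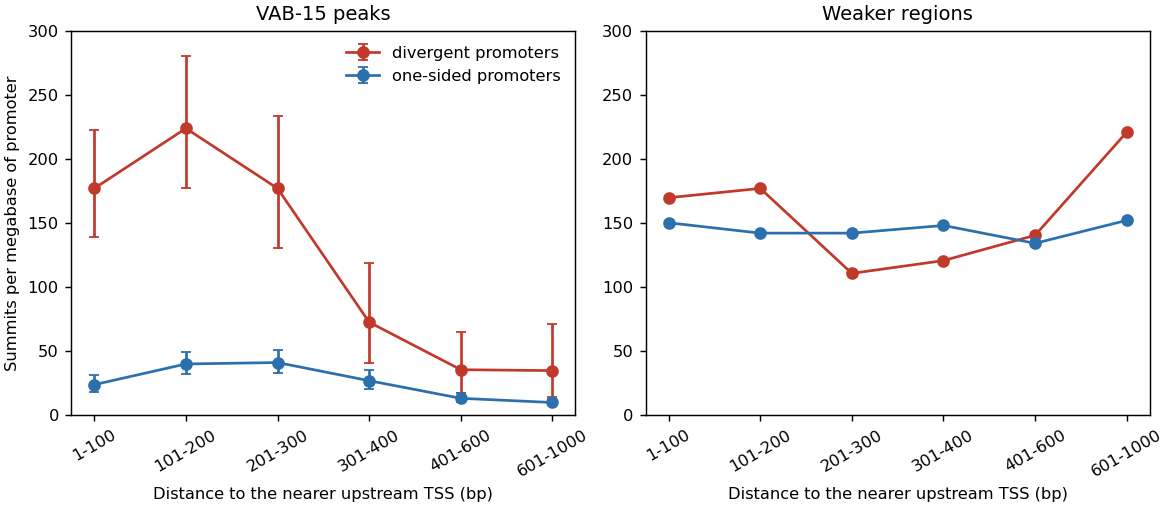
Summits per megabase of promoter (y axis) by distance in bp to the nearer upstream TSS (x axis), for VAB-15 peaks (left, with exact Poisson 95% intervals) and weaker regions (right), in divergent promoters (red) and one-sided promoters (blue). Peaks are denser in divergent promoters at every distance, from 224 against 39.6 per megabase at 101 to 200 bp to 34.4 against 9.43 at 601 to 1000 bp, whereas for weaker regions the order of the classes varies with distance.

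By the rule each member lies between 2 TSS, so the positions below describe the members within its limits. The nearer TSS was a median of 156 bp from the summit (quartiles 73.0 to 242) and the farther 347 bp (231 to 565), and the 2 TSS were a median of 524 bp apart (334 to 779). In 205 members (89.5%) the summit lay in no annotated protein-coding transcript. In 18 it lay inside another transcript of a gene of the pair, and in 6 inside another gene, among them the hel-1 member, which falls within C26D10.3. The minus-strand and the plus-strand gene were nearer about equally often, the plus-strand gene in 122 of 229. In 159 members both TSS lay within 500 bp of the summit. The closest pair was F32D8.14 and F32D8.5, with TSS 65 bp apart and a signal of 116 in replicate 1 and 35.9 in replicate 2. The widest was mif-4 and ipla-6, 1659 bp apart, with 140.3 and 68.1. At the edge of the rule, the last member inside lay between nep-26 and mdt-22, a Mediator subunit gene, with its farther TSS at 997 bp and a pooled signal of 169. The first promoter peak outside lay between C02F5.10 and knl-1, a kinetochore gene, at 1017 bp with a pooled signal of 116.

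Most divergent gene pairs of the genome held no peak. Of 3130 annotated pairs that leave a base within the limit of both TSS, 224 held a member (7.16%, 6.28 to 8.12). The share was 4.54% (3.83 to 5.33) without replicate 1 and 6.55% without replicate 2. Occupancy was highest among pairs with TSS 251 to 500 bp apart, of which 14.0% held a member (11.3 to 17.1). It was 7.60% (5.22 to 10.6) among pairs up to 250 bp apart and 10.6% (8.10 to 13.6) at 501 to 750 bp, whose interval overlaps that of the highest class. At 1001 to 1500 bp the share was 3.46% (2.21 to 5.15). The number of bases between the 2 TSS that meet the rule grows with their distance up to 1000 bp and falls beyond it. Pairs up to 250 bp apart thus leave fewer such bases than pairs at 251 to 500 bp, and pairs at 1001 to 1500 bp leave more. The shares were not adjusted for this. The median distance over all annotated pairs was 784 bp.

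**Figure D2:**
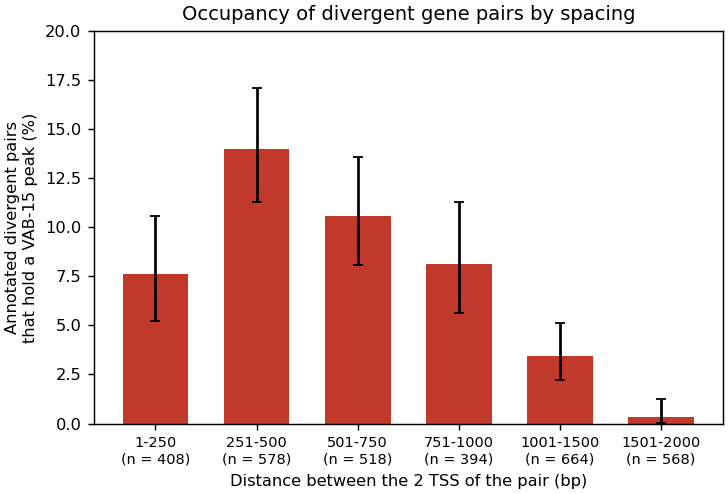
Percent of annotated divergent gene pairs that hold a VAB-15 peak (y axis) by the distance in bp between the 2 TSS of the pair (x axis), with exact 95% intervals and the number of pairs. The share rises from 7.60% for pairs up to 250 bp apart to 14.0% at 251 to 500 bp and falls to 3.46% at 1001 to 1500 bp.

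The 224 pairs comprise 448 genes, and 220 of these genes were the nearest gene of no promoter peak. Assigning each peak to its nearest gene thus leaves out 220 genes whose promoter holds a summit by the rule. Of the pairs, 5 held 2 members each. In 4 of them the regions overlap, with summits 199 to 207 bp apart, so their signals share reads. These are the pairs of sup-35 and Y48A6C.4, F29B9.11 and the histone demethylase gene jmjd-1.2, the JNK-like kinase gene kgb-1 and T07A9.12, and R186.8 and the heterochronic gene lin-46. In the pair of T26A8.4 and pdtf-1 the regions were separate, with summits 613 bp apart.

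The largest signal of the whole set was that of a member. The peak between hel-1, which encodes a DEAD-box RNA helicase, and C26D10.4 had a signal of 847 in replicate 1 and 365 in replicate 2 and ranked first in each. The K01G5.10 and tasp-1 member, where tasp-1 encodes a taspase homolog, followed with 379 and 167 and ranked second in each. Below these 2 the signal fell off gradually. The member between rps-20, a ribosomal protein gene, and ekl-4, the homolog of DMAP1, had 346 in replicate 1 and 118 in replicate 2. The C06B3.6 and C06B3.7 member had 316 and 135. The rpl-15 and K11H12.8 member, at a second ribosomal protein gene, had 331 and 119. These 5 members were all among the 21 highest ranks of both replicates.

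The next ranks held pairs with genes of varied function. The peak between iff-2, an eIF5A gene, and F54C9.14 had a signal of 315 in replicate 1 and 115 in replicate 2, and lay 68 bp from iff-2 and 867 bp from its partner. The rps-19 and hsr-9 member, the latter encoding a 53BP1-like protein, had 292 and 114. The member between nhl-2, a TRIM-NHL gene, and tag-340 had 282 and 108 and lay over 500 bp from both TSS. By position the W03C9.5 and mex-1 member was nearer W03C9.5 (174 bp) than mex-1 (919 bp), which encodes a zinc finger protein of early blastomeres. Its signal was 231 in replicate 1 and 116 in replicate 2. The rpl-20 and Y17G9B.5 member had 262 and 77.9, and ranked 21 and 93. The prp-19 and K10D2.5 member had 226 and 95.7, and lay 638 bp from the spliceosome gene prp-19 and 37 bp from K10D2.5. The member between rpl-12 and the DREAM complex gene lin-54 had 225 and 101. All 12 of these strongest members ranked within the first 35 regions of replicate 1 and the first 93 of replicate 2.

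Across the members, the pooled signal had a median of 154 (quartiles 126 to 207), against 146 (121 to 185) in one-sided promoter peaks, 137 (120.0 to 169) outside promoters and 143 over all peaks. Members were a larger share of the stronger peaks, with 39 of the 100 strongest, 80 of the first 247 (32.4%, 26.6 to 38.6) and 43 of the last 247 (17.4%, 12.9 to 22.7). In replicate 1 the members' signal ran from 61.6 to 847 with a median of 112, and in replicate 2 from 14.1 to 365 with a median of 51.0. Over the 30000 regions of each replicate list the medians were 30.2 and 17.2.

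The replicates held the members unequally. Of 229 members, 134 (58.5%, 51.8 to 65.0) had their summit among the 990 strongest regions of both replicates, against 54.6% of all peaks, which is within the members' interval. The share was 55.9% in one-sided promoter peaks, a difference of 2.57 points (Newcombe 95% interval -5.46 to 10.5). Replicate 1 held 91.7% of the members and 82.9% of the one-sided promoter peaks, a difference of 8.78 points (3.33 to 13.7). Replicate 2 held 63.8% and 68.1%, a difference of -4.31 points (-12.1 to 3.27). When 0.5 times as many regions of each replicate were taken, both replicates held 40.6% of the members and 30.7% of the one-sided promoter peaks (9.92 points, 2.20 to 17.7). When 2 times as many were taken, the difference for both replicates was -5.51 points (-12.3 to 0.948), and that for replicate 2 was -6.56 points (-13.3 to -0.201), so the direction depends on the length of the list. Over all peaks, replicate 1 held 84.6% and replicate 2 held 66.2%. In replicate 2, 7 of 229 members and 17 of 990 peaks lay in no region at all.

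**Figure D3:**
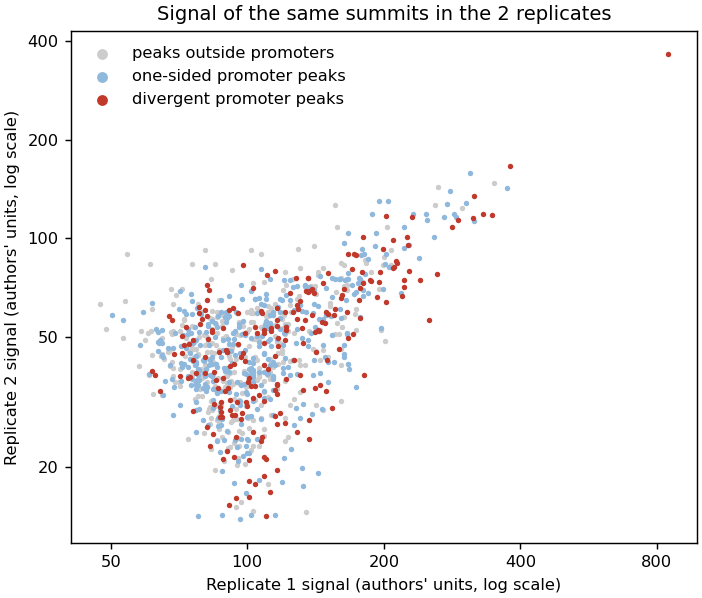
Signal in replicate 1 (x axis) and replicate 2 (y axis), both in the authors' units on log scales, for each peak whose summit lies in a region of both replicates. Divergent promoter peaks (red) include the peak with the highest values in both, 847 and 365, and otherwise spread through the same range as one-sided promoter peaks (blue) and peaks outside promoters (grey).

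Chromosome X held few members. Of 177 peaks on X, 7 were members (3.95%, 1.60 to 7.98), against 222 of 813 autosomal peaks (27.3%, 24.3 to 30.5), a difference of -23.4 points (-27.1 to -18.4). X also has few divergent promoters, with 0.559% of its bases meeting the rule against 1.96% of autosomal bases, and 192 of the 3130 annotated pairs. Of these 192 pairs 3.65% held a member, against 7.39% of the autosomal pairs, a difference of -3.74 points whose interval includes 0 (-5.86 to 0.0533). The X members were all below the first 250 ranks. The strongest lay between dnj-14, which encodes a J-domain cochaperone, and glit-1, with a signal of 141 in replicate 1 and 34.8 in replicate 2. Among the autosomes, the share of annotated pairs with a member ran from 4.02% on V (2.74 to 5.65) to 10.5% on III (7.93 to 13.5).

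**Figure D4:**
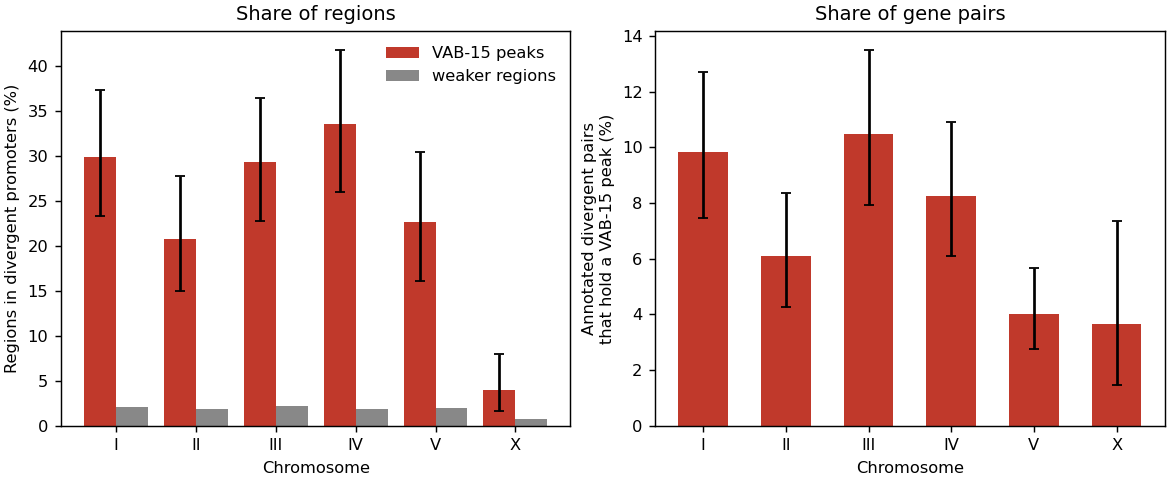
Left, percent of VAB-15 peaks (red, exact 95% intervals) and of weaker regions (grey) that lie in divergent promoters on each chromosome. Right, percent of the chromosome's annotated divergent gene pairs that hold a VAB-15 peak, with exact 95% intervals. On X 3.95% of the peaks are in divergent promoters, far below the autosomes, while 3.65% of its pairs hold a peak, close to the 4.02% of chromosome V.

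Genes of the cytosolic ribosome stood out among the pairs by number. Of 82 listed ribosomal protein genes 50 have a divergent promoter, and 27 of these 50 (54.0%) were in a member pair, against 448 of 5780 genes with a divergent promoter in all (7.75%). They account for 25 members, 2 of which lie between 2 ribosomal protein genes: rpl-24.1 with rps-10, and rpl-36 with rps-14. The ribosomal protein gene was the nearer one in only 10 of the 25, and lay a median of 295 bp from the summit. The pooled signal of these members had a median of 202, and 18 of 25 were in the 990 strongest regions of both replicates (72.0%, 50.6 to 87.9), an interval that holds the 58.5% of all members and the 54.6% of all peaks. After rps-20, rpl-15, rps-19, rpl-20 and rpl-12 came rps-1, whose partner ifet-1 encodes a translational repressor that binds eIF4E, with 202 in replicate 1 and 117 in replicate 2. That the ribosomal list is over-represented among all promoter peaks was known from earlier results of these data, so these counts describe the pairs and are no independent support.

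Other groups of broadly expressed genes followed. Of the listed genes with a divergent promoter, chaperones and heat shock proteins had 13 of 37 in member pairs and translation factors and tRNA synthetases 9 of 37. The listed gene was the nearer one in 4 of 13 chaperone members and 7 of 9 translation members. Among the chaperones, hsp-90, which encodes the cytosolic Hsp90, lay 409 bp from a summit shared with C47E8.4 (213 in replicate 1, 85.1 in replicate 2). The cct-8 gene, a subunit of the chaperonin that folds actin and tubulin, shared a member with Y55F3AR.2 (222 and 74.4). The cct-1 and cct-7 genes and the prefoldin gene pfd-1 were also in member pairs. Among the translation genes, eef-2, the elongation factor that drives translocation, lay 25 bp from its summit, with 163 in replicate 1 and 69.9 in replicate 2.

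Chromatin and RNA genes were present too. Chromatin modifiers had 9 of 24 in member pairs, a share of 37.5% against 7.75% of all genes with a divergent promoter. They include lin-35, the worm Rb homolog, whose peak with vps-51 had 222 in replicate 1 and 71.2 in replicate 2. Also among them were lin-54 and efl-1, which like lin-35 act in the DREAM complex, and lin-53, a histone-binding protein. Splicing genes had 6 of 36, led by prp-19 and followed by snr-1, an Sm protein, and prp-8, the core spliceosome protein. Vesicle traffic genes had 11 of 48, led by snx-13, the partner of snr-1, with 227 and 79.3. A listed gene was the nearer one in 4 of 10 chromatin, 3 of 5 splicing and 5 of 11 vesicle traffic members. A member can count in several lists through its pair, as does that of rpl-12 and lin-54.

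The remaining lists had fewer members, several of them near the 7.75% of all genes with a divergent promoter. They do not hold every gene of their group, so the counts describe the listed genes only. Among genes of RNA polymerase and general transcription 5 of 24 were in member pairs, led by taf-4, a TFIID subunit, with pqn-59 (170.1 in replicate 1, 80.4 in replicate 2). The respiratory chain and ATP synthase list had 4 of 26, led by atp-3 with F27C1.2 (142 and 45.0). It leaves out cox-6B, ndub-8 and ndua-8, which are also in member pairs. The cox-6B member had a higher pooled signal (209) than that of atp-3 (186). Mitochondrial ribosomal proteins had 3 of 30, led by mrps-17 with txdc-9 (171 and 50.8). Proteasome genes had 3 of 24 (12.5%), led by rpn-5, whose partner scc-1 encodes a cohesin subunit (117 and 46.8). The cell cycle and DNA replication list had 2 of 25, led by psf-1 with R53.4 (94.0 and 28.8). It leaves out mcm-10 and pola-1, which are also in member pairs. Listed ubiquitin pathway genes had 0 of 35 and listed mitochondrial import genes 0 of 6, the latter too few to read. The ubiquitin list leaves out let-70, rfp-1, mib-1 and ubh-4, and the import list mtx-1, all of which are in member pairs.

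The touch neuron, Hox, homeobox, pan-neuronal, histone, receptor and collagen lists held few members, but several have few genes with a divergent promoter. The counts are read against the 7.75% of all such genes that were in a member pair. Of the touch receptor genes only 3 of 14 have a divergent promoter, and none of these was in a member pair. The same held for the single gene with a divergent promoter among the touch neuron fate regulators and the single one among the Hox genes and cofactors. With these sizes the absence of members cannot be told from that share. The homeobox list had 1 of 13 (7.69%), close to it. This was ceh-38, 77 bp from a summit it shares with malt-1, with 139 in replicate 1 and 58.2 in replicate 2. The pan-neuronal list had 1 of 3, nsf-1, which encodes the ATPase that recycles SNARE complexes, shared with the ADAR family gene adr-1 (174 and 89.0). Histone genes had 1 of 66 (1.52%) although most are arranged head to head. This was his-41, whose peak with mdf-1 had 94.3 in replicate 1 and 16.0 in replicate 2 and ranked 17943 in the latter. Nuclear hormone receptors had 1 of 46 (2.17%), nhr-142 with F44E7.9 (85.3 and 36.9). Chemoreceptor genes had 2 of 290 (0.690%), srh-2 with icl-1 (118 and 29.2) and sri-5 with rsr-1 (107 and 24.0). Collagens had 5 of 47 (10.6%), led by col-2, whose partner ndc-80 encodes a kinetochore protein (186 and 74.6).

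The homeodomain site was not detectably more frequent in members than in the other classes of region. Matches to TAATTG at most 50 bp from the summit occurred in 17 of 229 members (7.42%, 4.38 to 11.6), against 10.4% of all peaks. One-sided promoter peaks also had 10.4% (difference -2.97 points, Newcombe 95% interval -7.31 to 1.92), and weaker divergent regions 5.93% (difference 1.50 points, -2.93 to 6.21). Peaks outside promoters had 12.3%. The centres of the 2906 annotated divergent pairs without a member had it in 8.53%. The median GC content was 47.5% in members, 37.6% in weaker divergent regions and 33.7% at those centres. The shares of this AT-rich word were not adjusted for GC content. TAATTA was in 9 members (3.93%) and in 3.71% of one-sided promoter peaks. The strongest member with TAATTG was that of Y48B6A.1 and rpl-43, shown above, with 193 in replicate 1 and 66.2 in replicate 2.

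GAGCGC was the most frequent of the 6 motifs searched. At most 50 bp from the summit it occurred in 58 members (25.3%, 19.8 to 31.5), against 15.8% of all peaks. The share was 19.1% in one-sided promoter peaks, 6.27 points lower with an interval that includes 0 (-0.358 to 13.2), and 5.88% outside promoters. It was 2.59% in weaker divergent regions (difference 22.7 points, 16.9 to 28.9) and 2.86% at the centres of pairs without a member. This motif had been picked out in earlier results over all peaks, members included. The gap to weaker regions and the position of its matches, given next, are therefore descriptions. Matches lay close to the summit: 14.0% of members had one starting in the 50 bp before the summit and 12.7% in the 50 bp after, against 0.437% to 1.75% in each of 14 steps of 50 bp farther out. Leaving out the 2 members with matches on both strands, it read toward the nearer gene in 20 members and away from it in 36. These 56 include the cyn-4 and copz-1 member, which lay at equal distance from both TSS.

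ACCGTAC had the clearest contrast between divergent and one-sided promoter peaks. It was in 29 members (12.7%, 8.65 to 17.7), in 8 of 404 one-sided promoter peaks (1.98%, 0.859 to 3.86) and in 1 of 357 peaks outside promoters. Weaker divergent regions had it in 2 of 270 (0.741%) and centres of pairs without a member in 31 of 2906 (1.07%). Because it was chosen for this contrast after all 7-base words had been compared in the same windows, no test is given. The word was picked from windows around the summit, so the position of its matches is partly fixed by that choice. There were matches in 7.86% of members in the 50 bp before the summit and 5.24% in the 50 bp after, and in at most 1.31% in any step farther out. Of the 29 members with ACCGTAC, 2 also had GAGCGC, 5 had ACGCAG and 0 had TAATTG. Over all members the shares of these 3 motifs were 25.3%, 15.7% and 7.42%, and the counts among 29 are small. The members with ACCGTAC were of ordinary strength, with a median pooled signal of 150.3. The 7 ribosomal protein members among them include those of rps-20, rps-23 and rpl-5. Others lie in the pairs of eef-1A.1, lin-53, the H2A.Z gene htz-1, cct-8 and the ADP/ATP translocase gene ant-1.1. Of these named genes only ant-1.1 was the nearer gene of its pair (55 bp, against 524 bp for T27E9.2). In the ribosomal protein members 28.0% had ACCGTAC (12.1 to 49.4) and 24.0% GAGCGC (9.36 to 45.1).

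**Figure D5:**
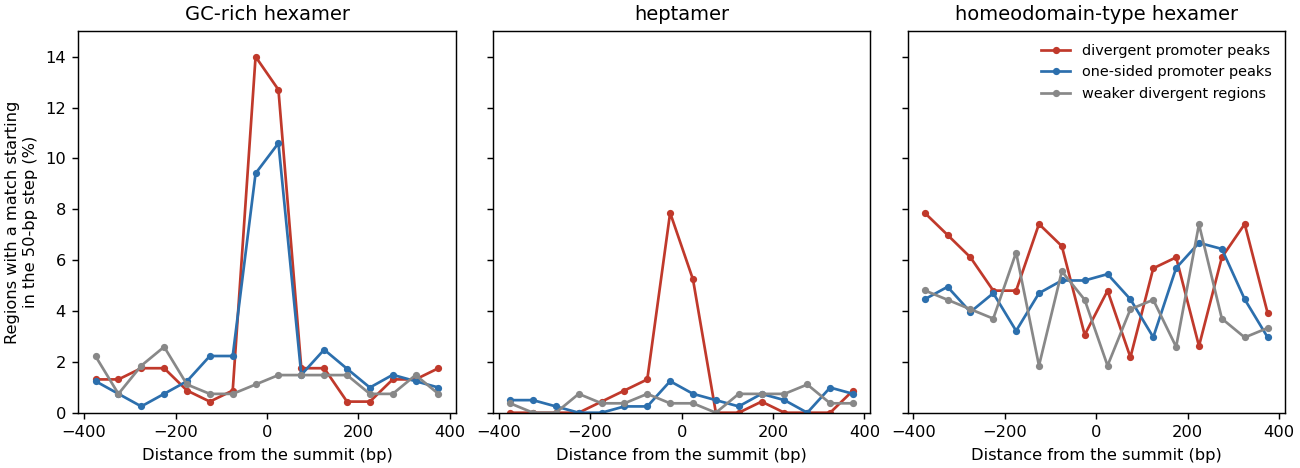
Percent of regions with a match on either strand that starts in each 50-bp step (y axis) by distance in bp from the summit (x axis), for GAGCGC (left), ACCGTAC (middle) and TAATTG (right), in divergent promoter peaks (red), one-sided promoter peaks (blue) and weaker divergent regions (grey). GAGCGC peaks at the summit in both kinds of promoter peak, ACCGTAC peaks there in divergent promoter peaks at 7.86%, and TAATTG has no maximum at the summit.

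The other motifs set members apart from weaker regions but not from one-sided promoter peaks. ACGCAG was in 15.7% of members, 14.1% of one-sided promoter peaks and 2.96% of weaker divergent regions. CTGCGTCT was in 6.11%, 8.17% and 1.48%. TTTCAG, which resembles the 3′ splice site, was in 6.55%, 5.69% and 17.4%. None of the 6 motifs was present in 116 members (50.7%). Members were GC-rich, with a median of 47.5% G and C over the 101 bp (quartiles 42.6 to 52.5), against 46.5% in one-sided promoter peaks, 37.6% in weaker divergent regions and 33.7% at the centres of pairs without a member. GC content therefore moved with the GC-rich motifs, and its part in their frequencies, or in that of the AT-rich TAATTG, was not tested. Repeated sequence was no more frequent in members: 11.8% of their windows held a 20-base word present 5 or more times in the genome, against 12.9% in one-sided promoter peaks and 12.6% in weaker divergent regions.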

How the data were processed

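ChIP-seq regions of 2 biological replicates of 1 group were used as deposited. Per the labels, chromatin was sonicated and recovered with an antibody to GFP; which aligner and peak caller were run is not stated. Each ce11 list gives a signal value per region that the authors computed, used here only to describe and rank regions within a list, and a deposited −log10 q-value, not used further. Each replicate and the pooled data have 30000 regions, a preset number that includes background, and the optimal set of 990 was made by the authors from both replicates. Of the 990 regions 873 have the preset width of 376 bp, so width is no measure of binding. Whether the replicates came from separate cultures is not stated beyond their label as biological replicates.

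TSS are the 5′ ends of protein-coding transcripts in Ensembl release 115 (WBcel235, the assembly of ce11) and were not measured. Where several TSS met the rule, the pair with the shortest total distance was kept. Weaker regions are the 15000 of lowest signal in the pooled list, less 62 that overlap a peak. Annotated divergent pairs are neighbouring plus-strand and minus-strand TSS of different genes with at least 1 base meeting the rule. A replicate rank is that of the strongest replicate region holding the summit. Motifs were searched on both strands in 101 bp windows of the RefSeq sequence of the same assembly. The ce10 lists were not used.

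Shares have exact Clopper-Pearson and differences Newcombe 95% intervals over regions, which are not biological replicates, so no p-value is given. Genes named are those of the 12 strongest members, the strongest member of each list, every member of the touch, Hox, homeobox and pan-neuronal lists, the members at the extremes of spacing and at the limit, and pairs with 2 members; ACCGTAC, its members and further members of the lists were named after their values were seen. The members, the 22 gene lists and the 6 motifs were chosen with earlier results of these data known. The lists work by name and are incomplete, so their counts hold for the listed genes only. Among the genes they miss although their promoters hold members are rpl-36.A, htz-1, cox-6B and let-70. The procedures were tested on simulated data. Python 3.11.15, pandas 2.3.3, numpy 2.4.6 and SciPy 1.17.1 were used.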

Additional observations from a re-analysis of the deposited data

How the results depend on the processing

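Of 88 values recomputed under alternatives, 76 stayed within the interval of the value reported, or within 1.5 times of a count, and 12 moved. For the medians of spacing and GC content the range used was the quartiles over members, which is wide for a median. No value whose interval excluded 0 changed sign. A limit of 500 bp gave 16.1% of peaks as members, a difference to weaker regions of 15.4 points and a peak in 8.35% of annotated pairs; 2000 bp gave 31.2% and 25.5 points. Peaks at or above the median signal held 131 members (26.5%, difference 24.7 points). Without replicate 1 here means that only peaks of the optimal set in the 990 strongest regions of replicate 2 were kept, and the reverse for replicate 2. The optimal set itself was made from both replicates, so the counts of members and pairs can only fall. There were 146 members without replicate 1 and 210 without replicate 2, as 22.3% and 25.1% of the peaks kept. Of the annotated pairs 4.54% and 6.55% held a member. The causes of these changes were not tested. The GAGCGC difference to weaker divergent regions was 13.3 points within 25 bp of the summit, a smaller window. The share of members in the strongest regions of both replicates differed from that of one-sided promoter peaks by 9.92 points when 0.5 times as many regions were taken, 2.57 for 990 and -5.51 when 2 times as many were taken, so its direction depends on the number of regions. The GAGCGC difference to one-sided promoter peaks was 1.04 to 7.17 points in all alternatives, and its interval excluded 0 for the 2000 bp limit (7.07, 1.26 to 13.1). Alternatives for ACCGTAC, X, GC content, spacing, ribosomal genes and the pairs of single replicates were chosen after seeing the data. ACCGTAC was in 10.7% to 15.1% of members and in 0.932% to 3.32% of one-sided promoter peaks. Ribosomal protein genes in member pairs numbered 18 without replicate 1 and 27 without replicate 2. No paired analysis was possible because there was 1 group of samples. Depth is unknown, so weak members cannot be weighed by reads.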

Other observations

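Small noncoding RNA genes lay within 500 bp of some members. Of 229 members, 8 had an snoRNA gene there (3.49%, exact Clopper-Pearson 95% interval 1.52 to 6.77), against 3.22% of one-sided promoter peaks, 3.64% of all peaks and 0.629% of weaker regions. Of these 8, 5 were members of ribosomal protein pairs (ska-3 and rps-12, tmem-107 and rps-26, rpl-7A and set-21, rpl-4 and B0041.8, and rps-10 and rpl-24.1). A tRNA gene lay near a single member, at rocf-1 and pqn-71 (0.437%, 0.0111 to 2.41), whereas 3.23% of all peaks (2.22 to 4.53) and 1.24% of one-sided promoter peaks had one. The snRNA genes sls-2.8 and sls-2.6 lay near the members of tim-1 and Y75B8A.23 and of hgo-1 and spe-46. These members were named after their values were seen.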
